A study of Mus musculus with 6 samples.

Results

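The genes described here are carriers of sugars, amino acids and monocarboxylates such as lactate, measured by bulk RNA sequencing in mouse melanoma tumours. They were chosen by name and level: rows of the deposited table whose symbol begins with Slc1a, Slc2a, Slc3a, Slc5a, Slc6a, Slc7a, Slc16a, Slc36a, Slc38a or Slc43a, averaging 1 FPKM or more across all 6 libraries, and with 1 gene of the Slc2a family left out by the rule. FPKM are fragments scaled to the length of the transcript and to the depth of the library, so levels of different genes can be set side by side. Of 103 rows with these names, 39 reached that mean, out of 20938 genes in the table and 11241 genes that reached it. The 39 include Slc7a6os, a neighbour of Slc7a6 on the other strand that is named after it and is not itself a carrier.

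The tumours grew from B16F10 cells, a melanoma line derived from C57BL/6 mice, injected subcutaneously into a hind leg (left side) of male C57BL/6 mice aged 6 weeks, and tissue was taken on day 19. There were 3 control libraries and 3 libraries labelled as overexpressing YKL-40, a secreted chitinase-like glycoprotein made by the gene Chi3l1. The genotype label of all 6 is WT. The labels name neither the vector of the control cells, nor the promoter or species of the overexpressed sequence, nor whether the cells were 1 clone, nor whether each library came from its own mouse. Any p-value therefore measures the spread between these libraries only.

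Cells take up polar nutrients through membrane carriers of the solute carrier superfamily. Facilitative glucose transporters (GLUT, Slc2a) let hexoses run down their gradient, the sodium-coupled Slc5a carriers move sugars, polyols and vitamins uphill, and the proton-coupled members of the monocarboxylate transporter family (MCT, Slc16a) export the lactate that glycolytic tumour cells make. Amino acids enter by sodium-coupled uptake (Slc1a, Slc38a, Slc6a) and are then traded for others by exchangers of the Slc7a family, most of which reach the plasma membrane only when bound to a heavy chain of the Slc3a family. Slc36a carriers and some Slc38a members sit on lysosomes, where amino acid efflux feeds the mTORC1 growth pathway. Melanoma cells are known for high glycolysis and for dependence on glutamine, leucine and cystine.

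The gene of YKL-40, listed as Chil1, was at 0.0644, 0 and 0.0242 FPKM in the controls and at 0 in all 3 libraries labelled YKL-40, so the table does not check the labels unless the species of the sequence is known, and every direction below rests on the labels. FPKM sums lay between 468605 and 490955 per library. Total read numbers are unknown. From the ratios of the lowest values, depth relative to the first control was estimated at 1.11 and 1.33 in the other controls and at 0.953, 1.21 and 1.13 in those labelled YKL-40. The labelled tissue matched its markers: the 12 melanocyte genes, among them Tyr and Pmel, summed to between 9891 and 12305 FPKM in every library.

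No transporter passed the test between the groups. With limma on log2(FPKM + 1) and Benjamini-Hochberg adjustment over all 11241 tested genes, 0 of the 39 were called, where 0.436% of all tested genes were (49 genes), and the lowest adjusted p of a transporter was 0.142. At an unadjusted p under 0.05 there were 3 transporters (7.69%), all higher in the libraries labelled YKL-40, against 18.0% of all tested genes (8.71% higher and 9.24% lower). The groups did not overlap for 6 transporters (15.4%), 4 higher and 2 lower, against 24.4% of all tested genes (10.3% higher and 14.2% lower). None of these shares lay above that background. The differences of the 39 had a median of -0.01 on the log2 scale, with 18 above and 21 below 0, and the median over all tested genes was -0.04.

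The intervals show how large a difference these libraries could have hidden. For 34 of the 39 transporters the 95% interval of the log2 difference lay wholly between -1 and 1, with a median half-width of 0.39. Among the exceptions were Slc16a3, Slc38a1, Slc7a11 and Slc43a3. For the 19 members below 10 FPKM this scale understates the difference in FPKM, so larger changes could be hidden there: that of Slc7a8 was 0.38, and 0.67 with a pseudocount of 0.1.

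**Figure D1:**
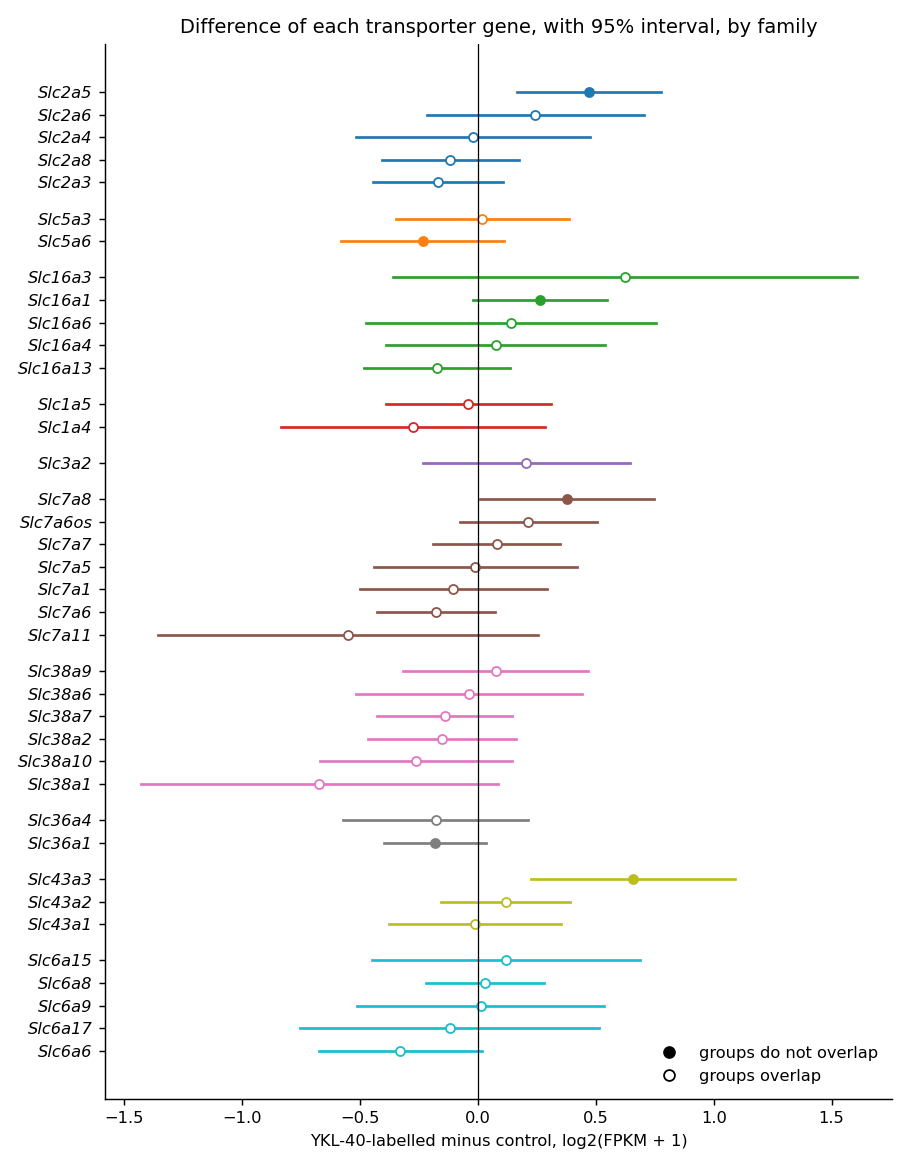
Difference (YKL-40-labelled minus control) for 38 of the 39 transporter genes (x axis, log2 of FPKM + 1, with the 95% interval as a line), grouped by family in colour. Filled points mark the 6 genes whose groups did not overlap. Most intervals span 0, and those of Slc43a3, Slc2a5 and Slc7a8 lie above it.

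A few carriers made up most of the transporter RNA of these tumours. Slc38a1 alone, a sodium-coupled importer of glutamine and other small neutral amino acids, gave 22.6% of the summed FPKM of the 39, the first 5 genes gave 55.3% and the first 10 gave 75.9%. After Slc38a1, with a mean of 252 FPKM over the 6 libraries, came Slc7a5 (LAT1, the exchanger for leucine and other large neutral amino acids) with 108, Slc16a1 (MCT1) with 99.0, Slc6a6 (the taurine transporter) with 84.8 and Slc38a10 with 72.9. Neighbours in this order were often not apart: the values of Slc7a5 (85.2 to 134) and of Slc16a1 (82.3 to 125) overlapped, as did those of Slc6a6 (67.2 to 110) and Slc38a10 (56.2 to 86.7). Slc38a1 was above Slc7a5 within each of the 6 libraries, most narrowly in library 3 labelled YKL-40 (109 against 104). Of the 39, 2 averaged over 100 FPKM, 18 between 10 and 100, and 19 below 10.

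**Figure D2:**
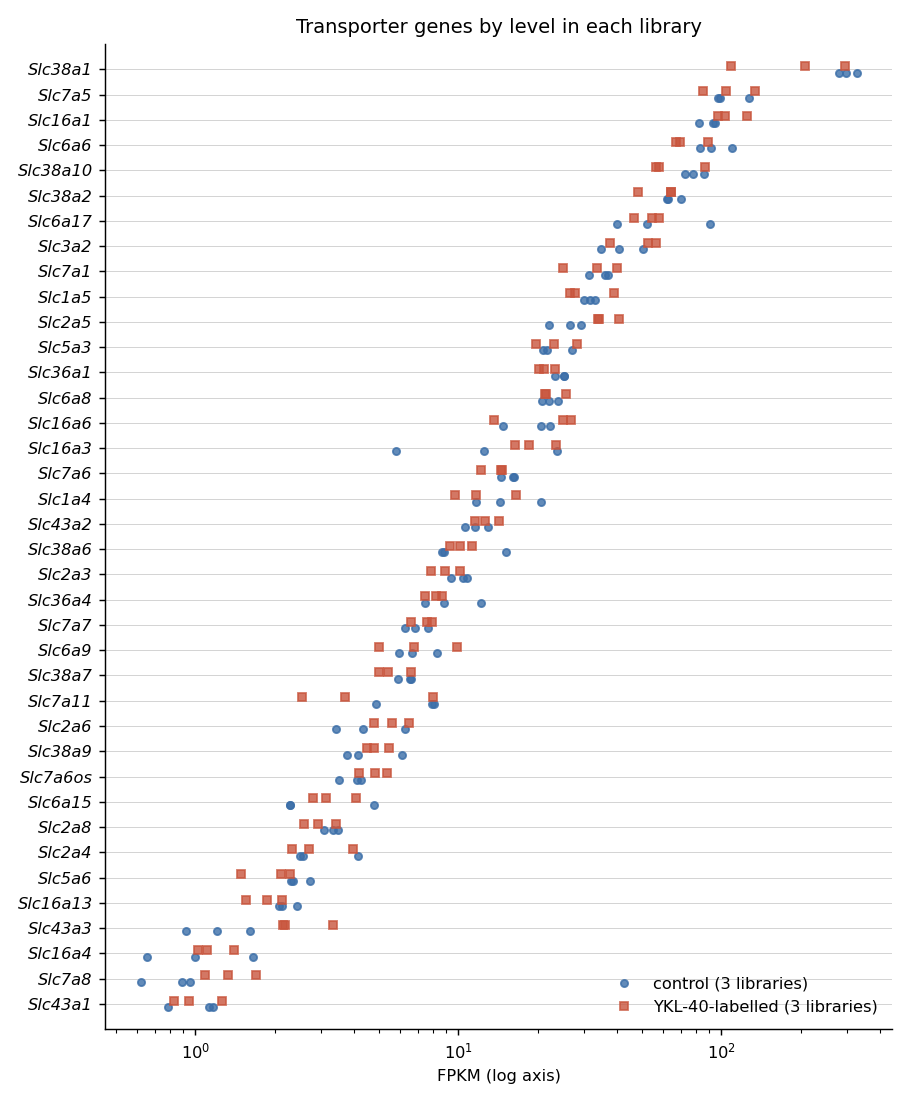
FPKM of 38 of the 39 transporter genes in each library (log axis), ordered by their mean over the 6 libraries, with controls as blue circles and libraries labelled YKL-40 as red squares. Slc38a1 is at the top with 109 to 327 FPKM, and Slc43a1, with a mean of 1.02, is at the bottom.

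By family, the Slc38a genes took 36.6% of the summed FPKM, the Slc7a genes 15.7%, the Slc6a genes 15.7% and the Slc16a genes 12.7%. The Slc38a sum was 502, 464 and 433 FPKM in the controls and 333, 467 and 250 in those labelled YKL-40, so library 2 labelled YKL-40 lay within the controls and the other two below them. The Slc16a sum was 126, 125 and 131 in the controls against 179, 143 and 142, with no overlap. The Slc2a sum, without the gene left out by the rule, was 50.9, 44.3 and 46.5 against 63.1, 54.9 and 52.6, again with no overlap. Slc16a1 (mean 99.0 FPKM) and Slc2a5 (mean 31.2) were the largest parts of the Slc16a and Slc2a sums. They were also the only genes of these families whose groups did not overlap. Of the 5 Slc2a genes, 2 had a log2 difference above 0 and 3 below, with a median of -0.02. The sums of Slc7a (165 to 199 against 139 to 211) and Slc6a (164 to 232 against 148 to 181) overlapped.

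Among the hexose carriers, Slc2a5 (GLUT5, the fructose transporter; chromosome 4, 150119344 to 150144168, GRCm38) was the most abundant member and the one with the lowest p of all 39. It was at 29.3, 22.1 and 26.6 FPKM in the controls and at 40.8, 34.3 and 33.9 in those labelled YKL-40. All 3 of the latter were above every control, and library 1 was the highest. The means were 26.0 ± 3.63 and 36.3 ± 3.87 FPKM (SD, n = 3 libraries each), 1.40-fold, a log2 difference of 0.47 (95% interval 0.17 to 0.78) with a limma adjusted p of 0.142. With array quality weights, which weight libraries by how well they fit their group, the adjusted p was 0.0325. Those weights were 2.85 for control 2 and 2.33 for library 3 labelled YKL-40 and between 0.476 and 0.973 for the other libraries.

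The other hexose carriers showed no such separation. Slc2a3 (GLUT3, a high-affinity glucose transporter) was at 9.34, 10.4 and 10.8 FPKM in the controls and at 10.1, 8.87 and 7.85 in those labelled YKL-40. Slc2a6 and Slc2a8, GLUT forms found mainly on internal membranes, had means of 4.67 ± 1.45 and 5.62 ± 0.868 FPKM and of 3.31 ± 0.202 and 2.98 ± 0.424 FPKM. Slc2a4 (GLUT4), the insulin-responsive transporter of muscle and fat, was at 2.51, 4.14 and 2.57 against 3.99, 2.71 and 2.33 FPKM. Its groups overlapped, while 20 skeletal muscle markers summed to between 70.2 and 252 FPKM in the controls and to between 20.5 and 51.1 in those labelled YKL-40. In bulk tissue, fewer cells of a type and less RNA per cell cannot be told apart. The 9 adipocyte markers summed to between 59.2 and 97.3 and between 55.1 and 99.0. Fabp4, at 52.7 to 91.6 FPKM, made up most of that sum in every library. Adipoq was at 0.0185, 0.563 and 0.338 in the controls and at 0, 0.0589 and 1.48 in those labelled YKL-40. The sum therefore does not show that fat content was alike.

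Only 2 sodium-coupled Slc5a genes reached the filter. Slc5a3 (SMIT1), which takes up the osmolyte myo-inositol, was at 23.3 ± 3.38 FPKM in the controls and 23.7 ± 4.34 in those labelled YKL-40. Slc5a6, the carrier of the vitamins biotin and pantothenate (chromosome 5, 31036036 to 31048924), was at 2.74, 2.36 and 2.31 against 1.49, 2.29 and 2.12 FPKM. Each YKL-40-labelled value was below each control, but the margin was 2.29 against 2.31, and the log2 difference of -0.23 (interval -0.58 to 0.11) did not pass (limma adjusted p = 0.445). Without library 1 labelled YKL-40 it was -0.11. In the GENCODE annotation, 9.92% of the exonic bases of Slc5a6 also lie in exons of Atraid on the other strand, whose reads this kit does not tell apart.

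The main lactate carrier of these tumours was Slc16a1 (MCT1; chromosome 3, 104638664 to 104658462), a bidirectional carrier of lactate, pyruvate and ketone bodies. It was at 92.7, 94.2 and 82.3 FPKM in the controls and at 125, 96.7 and 103 in those labelled YKL-40. Every library labelled YKL-40 was above every control, with library 2 only just so. The means were 89.7 ± 6.54 and 108 ± 15.1, a log2 difference of 0.26 (interval -0.02 to 0.55, limma adjusted p = 0.310), and 0.15 without library 1 labelled YKL-40.

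Slc16a3 (MCT4), the low-affinity lactate exporter of hypoxic and glycolytic cells, was lower and far more uneven. The controls had 5.79, 12.5 and 23.7 FPKM and the libraries labelled YKL-40 23.5, 16.4 and 18.5. The controls alone spanned the whole range, so the groups overlapped despite a log2 difference of 0.62 (interval -0.36 to 1.61, adjusted p = 0.472). That difference was 0.15 without control 1 and 1.08 without control 3. The ratio of Slc16a1 to Slc16a3 was 16.0, 7.54 and 3.47 in the controls and 5.33, 5.91 and 5.57 in those labelled YKL-40, which were alike while the controls were not.

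Basigin (Bsg), the membrane protein that carries both of these MCTs to the cell surface, was at 65.5, 81.3 and 91.1 FPKM in the controls and at 156, 87.5 and 104 in those labelled YKL-40. Its highest value and that of Slc16a1 fell in the same library, the first labelled YKL-40. The lowest Bsg and the lowest Slc16a3 value were both in control 1. Control 3, however, had the lowest Slc16a1 (82.3) beside the highest Slc16a3 (23.7) and the highest Bsg of the controls (91.1). The log2 difference of Bsg was 0.51 (limma adjusted p = 0.283).

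**Figure D3:**
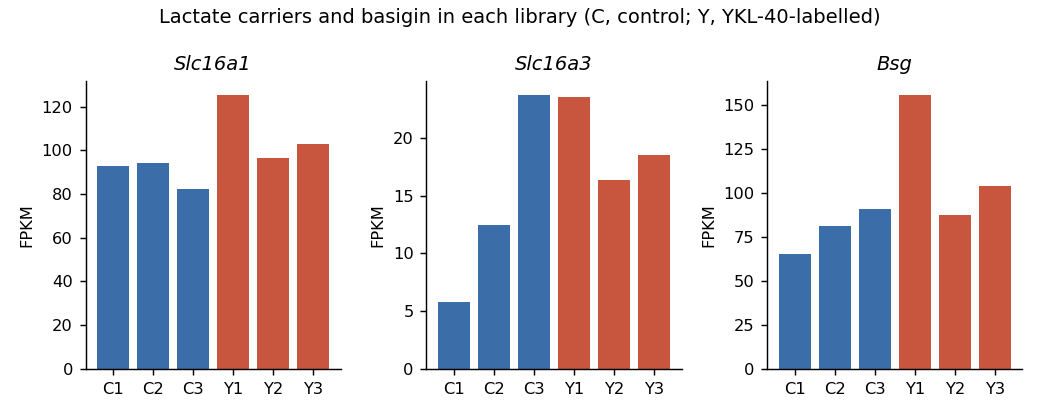
FPKM of the lactate carriers Slc16a1 and Slc16a3 and of their chaperone Bsg in each library, controls in blue and libraries labelled YKL-40 in red. Slc16a1 is 82.3 to 94.2 in the controls and 96.7 to 125 in the others, and Slc16a3 runs from 5.79 to 23.7 within the controls.

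Of the remaining Slc16a members, Slc16a6 (MCT7) was near Slc16a3 and Slc16a13 and Slc16a4 were lower. Slc16a6 had 22.2, 14.8 and 20.6 FPKM in the controls and 26.8, 25.0 and 13.7 in those labelled YKL-40, where library 3 was the lowest of all 6. In GENCODE, 22.5% of its exonic bases overlap exons of Amz2 or Arsg on the other strand. Slc16a13 averaged 2.22 ± 0.196 and 1.86 ± 0.289 FPKM, and Slc16a4 1.10 ± 0.508 and 1.18 ± 0.203.

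For glutamine and small neutral amino acids, Slc38a1 (SNAT1; chromosome 15, 96571418 to 96643438) was the largest single signal. It was at 327, 296 and 279 FPKM in the controls and at 208, 295 and 109 in those labelled YKL-40. Library 2 lay within the controls, library 1 below them, and library 3 furthest below the control mean of 301 ± 24.1. The log2 difference was -0.67 (interval -1.43 to 0.08, limma adjusted p = 0.326), the most negative of the 39. It was -0.28 without library 3 labelled YKL-40 and -0.99 without library 2, so its size differed with single libraries.

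Slc38a2 (SNAT2), the form that cells raise when amino acids run short, was steadier, at 62.6, 70.3 and 62.2 FPKM against 48.1, 64.3 and 64.3. The ratio of Slc38a1 to Slc38a2 was between 4.22 and 5.22 in 5 libraries and 1.69 in library 3 labelled YKL-40. Slc1a5 (ASCT2), the exchanger known for glutamine uptake in tumours, was at 31.5 ± 1.53 FPKM in the controls and 31.1 ± 6.80 in those labelled YKL-40, with library 2 the highest of all 6 at 38.9. Slc38a10 and Slc38a6, less studied relatives, had 78.9 ± 6.71 and 66.9 ± 17.2 FPKM and 10.8 ± 3.69 and 10.2 ± 0.970 FPKM.

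Of the 4 tested genes listed for small neutral amino acids and glutamine, all 4 had a difference below 0, as did 6493 of all 11241 tested genes. The median of the 4 was -0.21, against -0.04 over all tested genes, and 0 passed in limma (0 at an unadjusted p under 0.05). With the mean log2 level of the skeletal muscle markers as a covariate, the difference of Slc38a1 was -0.08, that of the taurine transporter Slc6a6 -0.04 and that of Slc16a1 0.03. The standard errors were wide in that fit (0.58 for Slc38a1), and the part of muscle in these values was not tested.

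The heavy chain Slc3a2 (CD98hc, 4F2hc) binds the light chains Slc7a5, Slc7a6, Slc7a7, Slc7a8 and Slc7a11. It was at 34.8, 40.8 and 50.5 FPKM in the controls and at 37.7, 56.3 and 52.4 in those labelled YKL-40, with overlap. Slc7a5 was at 98.5, 127 and 97.2 against 85.2, 134 and 104 FPKM. The means of Slc7a5 were 108 ± 17.0 and 108 ± 24.8, and the interval of the log2 difference, -0.44 to 0.42, leaves room for a moderate shift either way.

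These 5 light chains together were at 127, 158 and 129 FPKM in the controls and at 109, 167 and 130 in those labelled YKL-40. That was between 2.56 and 3.87 times the heavy chain in the controls and between 2.49 and 2.96 times in those labelled YKL-40. Slc7a5 made up between 75.1% and 80.6% of the light chain sum in every library. Most of the summed light chain RNA was thus Slc7a5 in both groups.

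Slc7a8 (LAT2; chromosome 14, 54722215 to 54781886), a second exchanger of neutral amino acids, was far lower, just above the filter. It had 0.953, 0.623 and 0.890 FPKM in the controls and 1.09, 1.69 and 1.34 in those labelled YKL-40, with no overlap. It passed the filter only through the latter, whose mean was 1.37 ± 0.306 against 0.822 ± 0.175 in the controls, so it is counted among the members at an unadjusted p under 0.05 and without overlap but supports neither count, and without library 2 labelled YKL-40 it is not tested. The log2 difference was 0.38 (interval 0.01 to 0.75, limma adjusted p = 0.272). The ratio of Slc7a5 to Slc7a8 was 103, 204 and 109 in the controls and 78.4, 79.3 and 77.9 in those labelled YKL-40.

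The cationic carriers did not separate. Slc7a1 (CAT1), the general importer of arginine and lysine, was at 36.2, 37.1 and 31.4 FPKM in the controls and at 25.1, 40.0 and 33.7 in those labelled YKL-40. Slc7a6 and Slc7a7, exchangers that release cationic for neutral amino acids, had 15.7 ± 0.981 and 13.8 ± 1.37 FPKM and 6.93 ± 0.725 and 7.38 ± 0.670 FPKM. Slc7a6os had 3.97 ± 0.401 and 4.78 ± 0.583.

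Slc7a11 (xCT; chromosome 3, 50364936 to 50499087) brings in cystine in exchange for glutamate, for the making of glutathione. It was at 4.84, 7.92 and 8.09 FPKM in the controls and at 2.54, 8.03 and 3.71 in those labelled YKL-40. Libraries 1 and 3 of the latter were the lowest of all 6 and library 2 was level with the upper controls. The log2 difference was -0.55 (interval -1.36 to 0.26, adjusted p = 0.443). It was -0.93 without library 2 labelled YKL-40, -0.26 without library 1 and 0.05 with the muscle covariate.

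The sequence before the listed start of Slc7a11 is shown because it holds a pair of matches to the letters of the C/EBP-ATF composite element. ATF4, a factor made when amino acids run short, is known to act through elements of this kind and to raise this gene. Of the 39 genes, 27 had an entry in the RefSeq promoter table (250 bases before to 50 after each start, GRCm38.p6). The letters TGATGCAA, searched on both strands, were in a window of 3 of those 27, Slc7a11, Slc1a4 and Slc7a7 (11.1%), against 1.03% of the 27025 genes in the table. RefSeq's table lists 1 start for Slc7a11, which lies inside the gene span given above and not at its outermost end. In the stretch below, which ends at that start, chr3:50443614-50443863 on the minus strand, capitals mark the 2 matches, which begin 66 and 47 bases before the start and face opposite ways.
Slc7a11: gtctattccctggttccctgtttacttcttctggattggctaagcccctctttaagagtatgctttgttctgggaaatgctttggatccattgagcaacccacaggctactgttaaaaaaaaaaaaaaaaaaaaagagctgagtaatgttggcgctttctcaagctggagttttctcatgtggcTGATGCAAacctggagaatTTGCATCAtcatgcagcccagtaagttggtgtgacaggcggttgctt

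The match of Slc1a4 does not lie wholly within the 250 bases before its start. It thus lies in, or reaches into, the 50 bases after it. The match of Slc7a7 is shown relative to 1 of its listed starts, as chr14:54417703-54417952 on the minus strand. Capitals mark the match, 243 bases before that start. For another listed start, the same match begins at the last base before it and runs across it. Its place thus depends on the start chosen. A match of letters does not show that a factor binds there.
Slc7a7: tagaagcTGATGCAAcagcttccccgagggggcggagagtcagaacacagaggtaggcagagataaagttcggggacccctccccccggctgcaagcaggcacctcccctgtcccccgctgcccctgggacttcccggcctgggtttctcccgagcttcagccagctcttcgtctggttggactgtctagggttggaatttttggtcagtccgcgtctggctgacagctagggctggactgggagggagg

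Other letters searched were nearer their share among all genes. The E-box CACGTG was in 4 of 27 (14.8%, against 8.09% of genes), the antioxidant response element core TGACNNNGC in 7 (25.9%, against 14.0%) and the gamma-activated site TTCNNNGAA in 3 (11.1%, against 9.55%). CACGTG and TGACNNNGC can share letters. With 27 genes, each of these shares rests on a few genes.

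Slc7a11 and Slc1a4 shared the set of their 3 lowest libraries, which the group labels did not set. Slc1a4 (ASCT1), an exchanger of serine, alanine and cysteine, was at 11.7, 20.6 and 14.4 FPKM in the controls and at 9.75, 16.5 and 11.6 in those labelled YKL-40. For both genes the lowest 3 libraries were control 1 and libraries 1 and 3 labelled YKL-40. Slc38a7 and Slc43a1 had the same lowest 3, making 4 of 39 transporters (10.3%), where 6.05% of all tested genes did.

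The same 3 libraries were also the lowest for 10 of 88 tested genes (11.4%) that use or sense the transported molecules. Among them were Chac1, a glutathione-degrading enzyme, Sesn2, a leucine sensor, and Asns, asparagine synthetase. The others were Gpt2, Ldhd, Psat1, Shmt2, Akt2, Arg1 and Akt1. Other genes of amino acid supply did not have this lowest set, among them Phgdh, which starts serine synthesis, and the carriers Slc7a7, Slc3a2, Slc7a5 and Slc38a2. Chac1 was at 12.5, 31.2 and 21.9 FPKM against 6.93, 18.4 and 9.91. Sesn2 was at 2.69, 4.33 and 3.70 against 1.33, 3.31 and 2.57, and Asns at 266, 400 and 325 against 233, 323 and 226. These genes were picked after this set was seen, so it is given as a description, and none of the 3 passed between the groups (limma adjusted p of 0.310, 0.380 and 0.395).

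**Figure D4:**
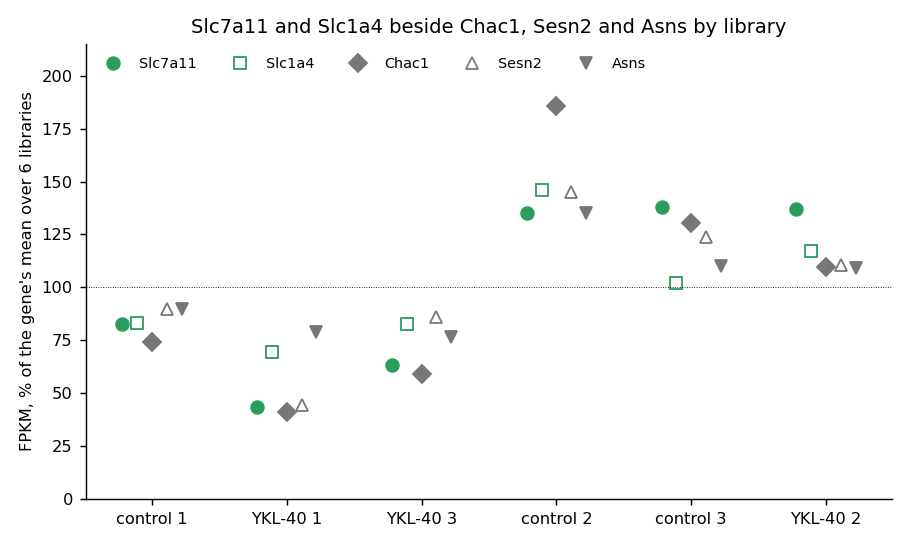
Level of Slc7a11 and Slc1a4 (green) and of Chac1, Sesn2 and Asns (grey) in each library, as a percentage of the gene's mean over the 6 libraries. All 5 genes are below their mean in control 1 and in libraries 1 and 3 labelled YKL-40, and above it in the other three, with Slc7a11 from 43.4% to 138% and Chac1 from 41.2% to 186%.

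Library 2 labelled YKL-40 stood apart for the amino acid carriers. Of the 19 amino acid carriers of the Slc1a, Slc3a, Slc7a, Slc36a, Slc38a and Slc43a families, 15 (78.9%) were higher in it than in both other libraries labelled YKL-40, where 40.0% of all tested genes were. Over all 39 members, the Slc6a carriers included, it was 21 (53.8%), and these families were chosen after the values were seen. Members of 1 library share its RNA, so these are not 15 separate observations. Slc7a11, Slc1a5, Slc7a1, Slc7a5 and Slc38a10 are among them. The 4 others were Slc38a2, at 64.3 in both library 2 and library 3, and the lower Slc38a6, Slc36a4 and Slc38a9.

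On lysosomes, Slc36a1 (PAT1; chromosome 11, 55204322 to 55236330), a proton-coupled exporter of small amino acids, was at 23.4, 25.1 and 25.2 FPKM in the controls and at 20.2, 23.3 and 21.2 in those labelled YKL-40. All YKL-40-labelled values were below all control values, by a margin of 23.3 against 23.4. The log2 difference of -0.18 (interval -0.40 to 0.04) did not pass (limma adjusted p = 0.354). Its relative Slc36a4 was at 12.1, 8.82 and 7.45 against 7.47, 8.21 and 8.65 FPKM, where control 1 stood above the other 5.

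Slc38a9, the arginine sensor that links lysosomal amino acids to mTORC1, was at 6.10, 3.77 and 4.15 FPKM against 4.77, 4.48 and 5.45. Slc38a7, which releases glutamine from lysosomes, was at 5.89, 6.58 and 6.52 against 5.42, 6.63 and 4.98. Of 23 tested genes of lysosomal amino acid sensing (mTORC1, Rag, Ragulator, folliculin, GATOR1, CASTOR, sestrin and TFEB family genes), 0 passed in limma, 0 were below an unadjusted p of 0.05, and the median was -0.04. Lamtor1, a Ragulator subunit that anchors the complex to the lysosome, had the lowest p, with 8.74 ± 0.284 and 10.2 ± 0.451 FPKM and an adjusted p of 0.292.

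In the Slc43a family the member with a separation was not an amino acid carrier. Slc43a3 (chromosome 2, 84936545 to 84958509), which moves purine nucleobases, was at 1.21, 0.919 and 1.62 FPKM in the controls and at 2.18, 2.15 and 3.34 in those labelled YKL-40. All 3 YKL-40-labelled values were above all controls, and the means of 1.25 ± 0.352 and 2.56 ± 0.678 were 2.05-fold apart. The log2 difference was 0.66 (interval 0.22 to 1.09), the most positive of the 39, with a limma adjusted p of 0.146, and 0.0230 with array quality weights. Slc43a2 (LAT4), an exit route for branched-chain and aromatic amino acids, had 11.7 ± 1.22 and 12.8 ± 1.33 FPKM, and Slc43a1 (LAT3), which carries the same kind of cargo, 1.03 ± 0.212 and 1.01 ± 0.223.

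**Figure D5:**
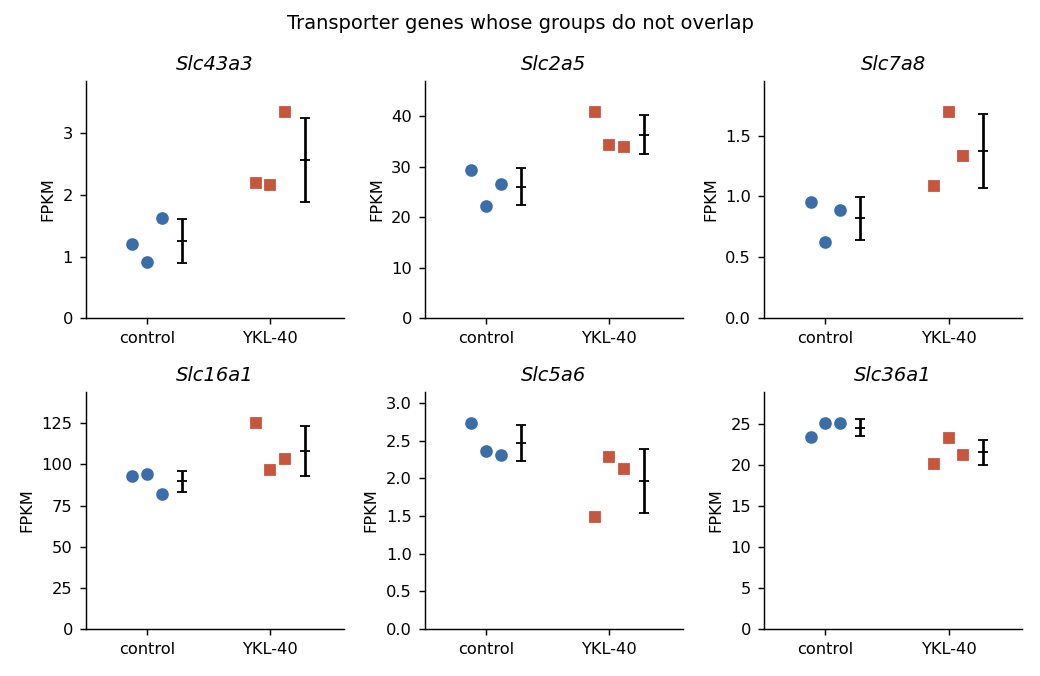
FPKM per library of the 6 transporter genes whose groups did not overlap, controls in blue and libraries labelled YKL-40 in red, with the mean and SD of each group in black (n = 3 libraries). Slc43a3, Slc2a5, Slc7a8 (which passed the filter only through its higher group) and Slc16a1 had higher values under the YKL-40 label, and Slc5a6 and Slc36a1 lower ones, by narrow margins of 2.29 against 2.31 and 23.3 against 23.4 FPKM.

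The Slc6a carriers couple uptake to sodium and chloride and are known for neurotransmitters, osmolytes and creatine. Slc6a6 was at 110, 82.7 and 91.4 FPKM in the controls and at 67.2, 88.5 and 69.6 in those labelled YKL-40, with only library 2 labelled YKL-40 inside the control range. Its log2 difference was -0.33 (interval -0.67 to 0.02, limma adjusted p = 0.295), and -0.22 without control 1. Slc6a17, known as a vesicular carrier of neutral amino acids in neurons, was at 90.6, 52.0 and 40.2 against 46.6, 58.0 and 54.5 FPKM, where control 1 was far above the rest. Its difference was -0.12, and 0.20 without control 1.

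The creatine transporter Slc6a8 had the smallest ratio of the highest to the lowest library of all 39 (1.22), at 22.3 ± 1.54 and 22.8 ± 2.36 FPKM, with an interval from -0.22 to 0.28. Slc6a15, a carrier of proline and branched-chain amino acids, had 3.12 ± 1.44 and 3.34 ± 0.672. The glycine transporter Slc6a9 had 6.97 ± 1.19 and 7.22 ± 2.48, but 30.2% of its exonic bases overlap genes of the other strand in GENCODE (B4galt2, Ccdc24 and Gm17114), so its level is uncertain.

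The filter left out 64 of the 103 rows. Of these, 15 were at 0 in every library and 46 averaged under 0.1 FPKM. Just inside the limit of 1 FPKM were Slc43a1 (mean 1.02) and Slc7a8 (1.10), and just outside were Slc7a4 (0.658) and Slc16a8 (0.638). Slc16a8 (MCT3), a lactate carrier of the retinal pigment epithelium, was at 1.06, 0.698 and 0.651 FPKM in the controls and at 0.382, 0.624 and 0.409 in those labelled YKL-40. The 5 carriers of acidic amino acids (Slc1a1, Slc1a2, Slc1a3, Slc1a6 and Slc1a7) were all below the filter, the highest being Slc1a1 with a mean of 0.175.

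Genes that use or sense the cargo did not pass either. Of 107 such genes on 11 lists, 88 were tested, 0 were called and 12 (13.6%) had an unadjusted p under 0.05, 7 higher and 5 lower, against 18.0% of all tested genes. For glucose, 4 of 11 had such a p, all higher (Hk2, Hk3, G6pc3 and Arrdc4), against 8.71% of all tested genes that were higher. Hk3 and Arrdc4 averaged 0.751 and 0.953 FPKM in the controls and 2.78 and 2.46 in those labelled YKL-40. They passed the filter only through the latter and do not support that count. The same holds for Gatm (0.692 and 1.68 FPKM) among the 7 higher genes. Hk2, the hexokinase that traps it in the cell, was at 88.7, 90.2 and 127 FPKM in the controls and at 178, 149 and 148 in those labelled YKL-40 (limma adjusted p = 0.111). For lactate and pyruvate, 3 of 11 had such a p and all 3 were lower (Pdk4, Pdha1 and Ldhb), against 9.24%. Pdk4, an inhibitor of pyruvate dehydrogenase, had the lowest p, with 1.90 ± 0.881 and 0.367 ± 0.105 FPKM (limma adjusted p = 0.0981). It passed the filter only through the controls and so does not support the count of lower genes.

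For arginine, the nitric oxide synthase Nos2 had 1.35 ± 1.17 and 7.65 ± 3.42 FPKM (adjusted p = 0.0846), the lowest p on these lists. The glutamine list was led by the glutaminase Gls2 (1.64 ± 0.445 and 2.86 ± 1.11 FPKM, adjusted p = 0.303), the branched-chain list by the transaminase Bcat2 (22.3 ± 1.95 and 25.5 ± 1.25, adjusted p = 0.361) and the serine and glycine list by Shmt1 (4.75 ± 0.202 and 3.58 ± 0.659, adjusted p = 0.253). The creatine and taurine list was led by Ckm, the muscle creatine kinase, with 11.2 ± 8.49 and 2.69 ± 0.667 FPKM (adjusted p = 0.150). The only tested gene of tryptophan and tyrosine use was Tyr, the tyrosinase of melanin synthesis, at 1280 ± 351 and 1111 ± 69.2 FPKM (adjusted p = 0.704).

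Markers of some other cells of the tumour differed in range between the groups, and those of others did not. The 15 macrophage markers summed to between 98.7 and 312 FPKM in the controls and to between 346 and 504 in those labelled YKL-40. Of the 14 tested, 10 had an unadjusted p under 0.05, all higher, against 8.71% of all tested genes. One of the 14, Aif1, was at 0.374, 0.745 and 1.06 FPKM in the controls and passed the filter only through the other group. The 14 T and NK cell markers in the table summed to between 1.94 and 6.84 against 16.2 to 49.2 FPKM. Of the 6 tested, 2 were called higher, where 41 of 11241 tested genes were. All of the 6 but Thy1 were below 1 FPKM in every control. They passed the filter only through the libraries labelled YKL-40, so that count is no support. The 10 fibroblast markers summed to between 49.2 and 281 against 262 to 453, and 8 of the 10 had an unadjusted p under 0.05, all higher. Among the 10, Dpt was below 1 FPKM in every control and passed the filter only through the other group. By contrast, 11 endothelial markers summed to between 110 and 172 against 113 to 171, and 2 of the 11 had an unadjusted p under 0.05, both higher. The 7 B cell markers summed to between 1.03 and 2.06 against 1.43 to 1.72.

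Of the muscle markers, 14 of 16 tested had an unadjusted p under 0.05, all lower, against 9.24% of all tested genes. Some of those tested, among them Actn3, Myh4, Atp2a1 and Tnnt1, were below 1 FPKM in every library labelled YKL-40. These passed the filter only through the controls and do not support that count. The 8 erythroid markers summed to between 472 and 1441 against 96.3 to 550 FPKM. Of the 5 erythroid genes tested, 3 were lower at an unadjusted p under 0.05 and 1, Hba-a1, was called higher; it has a near-identical copy, Hba-a2, between which reads can be split. Of the neutrophil markers 2 of 9 and of the keratinocyte markers 3 of 8 were at 0 in every library. With the muscle level as a covariate, the differences of Slc2a5, Slc43a3 and Slc7a8 were 0.63 (SE 0.25), 0.80 (SE 0.37) and 0.67 (SE 0.29), with an adjusted p of 0.861 for each. The muscle sums of the groups did not overlap, so muscle and group are hard to separate in that fit. The part of muscle, macrophages, lymphocytes and fibroblasts in these values was not tested.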

How the data were processed

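Per the labels' protocols, 2 µg of total RNA went into each library preparation (Illumina TruSeq RNA, V2), a chemistry that does not mark strand. The authors deposited FPKM, 1 value per gene and library. Per the submitters' processing notes, the tools were bcl2fastq 2.0, HISAT2, StringTie, DESeq2 and limma and the build mm10, with no roles given, and no annotation is named there. Groups come from the sample titles.

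The deposited FPKM were put on the log2(FPKM + 1) scale here, on which differences of low genes are understated. Genes averaging 1 FPKM or more were compared with limma 3.58.1 in R 4.3.3 (variance trend, two-sided, Benjamini-Hochberg over all tested genes, threshold 0.05). The procedure was tested on simulated data with changes of log2 1 or 2 and, for each gene, the same spread in every library. It found 88% and 98% of these changes, and 4.87% of its calls were false. Differences as small as those of the transporters, and libraries of unequal quality, were not simulated. Read depth is unknown, so no counting intervals are given.

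The members and lists were chosen with earlier results of these data known. The rule for named genes took members past the threshold or with groups that do not overlap, the most abundant of each family, the CD98hc and lactate carrier pairs, the 2 genes on each side of the filter and the gene of lowest p per pathway list; all other genes were named after their values were seen. In these families 2 genes are not reported here. Positions and promoters are from RefSeq, GRCm38.p6, the assembly that mm10 comes from (39 of 39 members matched by symbol). Exon overlaps are from GENCODE M21. Alternatives were other pseudocounts, filters and scalings, no variance trend, array quality weights, a replicate block, a skeletal muscle covariate and leaving out each library.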

Additional observations from a re-analysis of the deposited data

How the results depend on the processing

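No transporter was called in any alternative run except with array quality weights, where 2 were, Slc2a5 (0.53, adjusted p = 0.0325) and Slc43a3 (0.91, adjusted p = 0.0230), beside 1111 genes in all and 4 on the pathway lists. Over all tested genes, 49 were called in the fit as reported, 1 with no filter (2694 at an unadjusted p under 0.05) and 0 in limma with the skeletal muscle covariate (567 at an unadjusted p under 0.05). Leaving out 1 library gave between 0 (without control 2, with 1345 at an unadjusted p under 0.05) and 238 (without YKL-40 library 2), with 2 without control 1, 209 without control 3 and 4 without YKL-40 library 1. On the pathway lists it gave between 0 and 2 called (2 without control 3). The median difference of the transporters, -0.01, lay between -0.076 (without control 3) and 0.0095 (without YKL-40 library 3) when 1 library was left out, and was 0.034 with the muscle covariate. The replicate numbers do not pair the libraries: the correlations of same-numbered libraries' deviations were -0.08, -0.19 and 0.00. No library correlated best with the library of its own number. The replicate block gave 120 genes called in all, 0 transporters and 3 pathway genes.

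Of 608 values of single members under an alternative, 563 kept their direction and side of the threshold, 2 passed it and 43, in 18 members, changed sign, none of them past the threshold. With median of ratios scaling the log2 differences with a changed sign were 0.0073 for Slc2a4, 0.0060 for Slc43a1 and 0.027 for Slc7a5. With array quality weights they were -0.0043 for Slc16a6, 0.050 for Slc38a6, 0.031 for Slc6a17, -0.019 for Slc6a8, -0.11 for Slc6a9 and -0.061 for Slc7a7. With the muscle covariate they were 0.086 for Slc16a13, 0.14 for Slc1a5, 0.034 for Slc38a7, 0.13 for Slc43a1 and 0.053 for Slc7a11. The cause was not tested.

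Leaving out 1 library changed the sign of 14 members, whose differences then ranged as follows: Slc16a4 from -0.084 to 0.26, Slc16a6 from -0.029 to 0.43, Slc1a5 from -0.21 to 0.061, Slc2a4 from -0.19 to 0.16, Slc38a6 from -0.17 to 0.20, Slc38a9 from -0.038 to 0.25, Slc43a1 from -0.10 to 0.055, Slc5a3 from -0.11 to 0.14, Slc6a15 from -0.017 to 0.39, Slc6a17 from -0.37 to 0.20, Slc6a8 from -0.051 to 0.079, Slc6a9 from -0.21 to 0.22, Slc7a1 from -0.25 to 0.074 and Slc7a5 from -0.18 to 0.15. Without read numbers, the counting error of members near 1 FPKM is unknown.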
